A study of Mus musculus with 6 samples.

Results

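Copies of the intracisternal A-particle (IAP), an endogenous retrovirus of mice, were followed through an eCLIP experiment on Gtsf1. Every LTR-class repeat feature whose name contains IAP was taken, which gave 10753 copies with a read in at least 1 library, out of 191758 LTR-class copies and 1753368 features of any kind. Stripping the copy number from the names left 25 subfamilies, of which 10 were internal regions (names ending in -int or _I, 6256 copies) and 15 were long terminal repeats (4497 copies). All 25 carried the family label ERVK in the files.

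P19 cells, a mouse embryonal carcinoma line, had been transiently transfected with mouse Gtsf1 carrying a TEV-Strep tag and expressed from the vector pEF. All 6 libraries came from such cells, so no library shows IAP RNA without the added protein. Of cells crosslinked with UV at 254 nm there were 2 inputs and 2 pull-downs on MagStrep beads, called UV libraries here. Of cells without UV there was 1 library of each kind. The labels do not say that numbered libraries came from separate cultures, so p-values measure only the spread between these libraries, and values of no-UV libraries have no replicates. Library totals ran from 13168593 to 18418166 reads, and reads without annotation made up 6.99 to 14.4% of them. Of 7 markers fixed for P19 cells, Pou5f1 (31.8 to 46.3 RPM, reads scaled to the total of the library) and Lin28a (17.4 to 42.1 RPM) were read in every library. Dppa4 stayed at or under 0.169 RPM and Nanog at or under 1.12 RPM. The summed level of 4 endoderm markers was 0.517 to 1.44 RPM in the 3 inputs and 3.34 to 6.22 RPM in the 3 pull-downs, with Afp at or under 0.0114 RPM, and its part in the results was not tested. The sum of 4 germ cell markers was likewise lower in the UV inputs (1.27 and 1.015 RPM) than in the UV pull-downs (2.15 and 1.76 RPM), and went from 0.330 to 1.16 RPM without UV, a part that was also not tested. Of these 4, Piwil2 alone went the other way with UV, from 0.724 and 0.623 RPM to 0.533 and 0.535 RPM. Sums were 0.0844 to 1.26 RPM for 2 mesoderm markers and 2.37 to 4.78 RPM for 3 neural markers.

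An IAP provirus has an internal region with gag, pro and pol genes between a pair of long terminal repeats (LTRs), which hold its promoter and polyadenylation signal. IAP copies are among the repeats that remain able to transpose in mice, and they are held silent in embryonic cells by DNA methylation and by histone methylation laid down by Setdb1 with Trim28. In male germ cells the piRNA pathway, which includes Piwi proteins and Gtsf1, guides their methylation and the cleavage of their transcripts. IAPEz-int is the internal region of the young IAPEz proviruses, and IAPLTR1 and IAPLTR2 elements are their LTRs, while the IAPEY names belong to other IAP groups of the repeat annotation. A pull-down of Gtsf1 reads the RNA that stays with the protein or the beads, and an input reads the RNA of the lysate.

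IAP RNA as a whole was not shifted beyond the spread of the inputs. The sum over all copies was 168 RPM in UV input 1 (95% Wilson interval 162 to 174), 146 RPM in UV input 2, 157 RPM in UV pull-down 1 (151 to 163) and 154 RPM in UV pull-down 2 (148 to 160). The pull-downs lay between the inputs. The pull-down mean was 155 ± 1.93 RPM and the input mean 157 ± 15.3 RPM (SD, 2 libraries each), which gives a ratio of 0.987 with a two-sided exact permutation p of 1, where 0.33 is the smallest that 6 splits of 4 libraries allow. In bulk RNA, fewer cells with a transcript and less transcript per cell cannot be told apart. Without UV the input held 102 RPM (97.3 to 108) and the pull-down 129 RPM (123 to 135), a ratio of 1.26. IAP reads were 1.54 to 2.18% of the LTR-class reads of a library.

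The balance of internal regions and LTRs likewise overlapped between the groups. Internal reads exceeded LTR reads 3.20-fold and 3.00-fold in the UV inputs and 2.92-fold and 3.39-fold in the UV pull-downs. The mean log2 ratio of internal over LTR reads was 1.65 ± 0.15 in the pull-downs and 1.63 ± 0.07 in the inputs (SD, n = 2 each, two-sided exact permutation p of 1). In the no-UV libraries the ratio was 3.35-fold in the input and 4.20-fold in the pull-down.

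The makeup of the IAP reads, in contrast to their sum, differed between pull-down and input. IAPEz-int held 54.6 and 49.5% of the IAP reads in the UV inputs and 35.5 and 33.4% in the pull-downs. Its LTR IAPLTR1_Mm went from 13.4 and 13.8% in the inputs to 5.91 and 7.60% in the pull-downs. IAPEY5_I-int moved the other way, from 4.36 and 7.66% to 14.5 and 10.9%, and its LTR, IAPEY5_LTR, from 1.28 and 1.77% to 10.1 and 4.79%. IAPLTR3-int went from 1.60 and 1.21% to 4.42 and 11.0%. For all 5 subfamilies the UV pull-downs lay outside the range of the inputs, and the no-UV pull-down lay on the same side of its input.

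**Figure D1:**
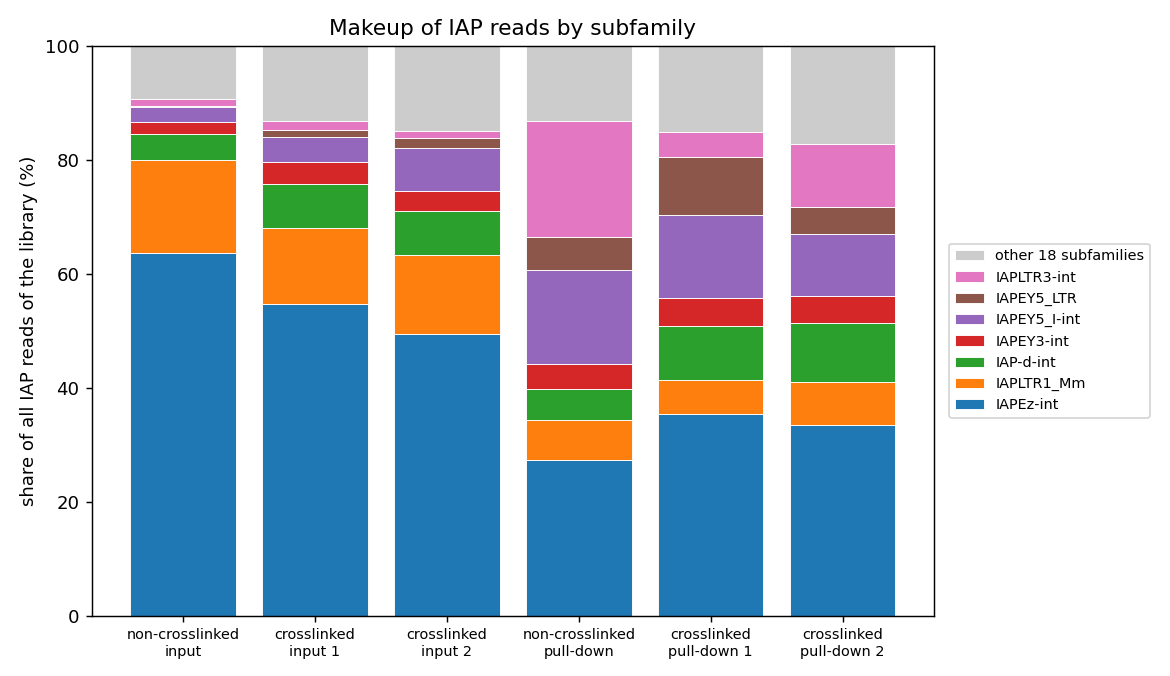
Share of all IAP reads of a library, in percent, held by 7 named subfamilies and by the other 18 together, with 1 bar for each library. IAPEz-int fills 49.5 to 63.7% of the 3 input bars and 27.3 to 35.5% of the 3 pull-down bars.

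Summed by provirus type, a grouping made after the values were seen, the 7 subfamilies of IAPEz-int, IAPLTR1 and IAPLTR2 (7578 copies) had a lower sum in the pull-downs. They had 126 and 103 RPM in the UV inputs and 74.2 and 73.0 RPM in the pull-downs, a ratio of 0.644, and 87.2 against 49.7 RPM without UV, a ratio of 0.570. The other 18 subfamilies (3175 copies) had 41.9 and 43.9 RPM (inputs) against 82.3 and 80.8 RPM (pull-downs), a ratio of 1.90. Without UV the latter had 15.2 RPM in the input and 79.3 RPM in the pull-down, a ratio of 5.21. Since the grouping followed the values, it was not tested. Most of the first sum was IAPEz-int and IAPLTR1_Mm, while the ratio was 0.553 for IAPLTR2b, 0.799 for IAPLTR2a, 0.924 for IAPLTR1a_Mm, 1.03 for IAPLTR2_Mm and 1.26 for IAPLTR2a2_Mm.

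To test single subfamilies, copies were summed and fitted with edgeR's quasi-likelihood test among 39069 features that reached a mean of 1 RPM, other repeats summed in the same way. All 10 internal subfamilies and 7 of the 15 LTR subfamilies reached it. At an adjusted p under 0.05, edgeR called 6 of the 17 higher and 1 lower in the UV pull-down, where it called 5.33% of all features higher and 2.72% lower (8.05% either way). Without adjustment 8 passed 0.05 as higher and 3 as lower, against 21.8% of all features either way. Of the 17, 15 had a mean of at least 1 RPM in both groups (4 called higher, 1 lower), while IAPEy-int and IAPA_MM-int reached the minimum through the pull-downs alone, so that their tests were in part set by the minimum. The median edgeR log2 ratio of the 17 was 0.43, against -0.21 for all features. Pull-downs did not overlap inputs and were higher in 9 of the 17, which held for 10.2% of all features, and were lower in 4, which held for 57.8%.

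**Figure D2:**
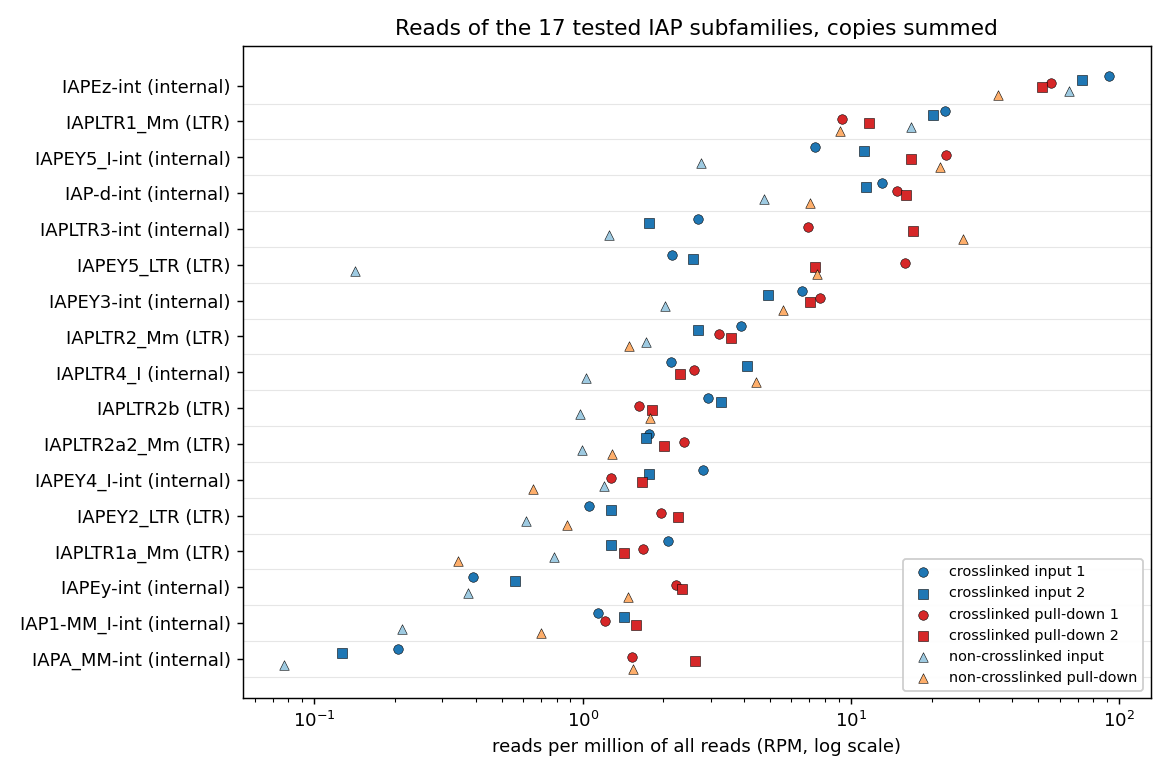
RPM on a log scale for the 17 tested IAP subfamilies, copies summed, with 1 symbol for each of the 6 libraries. Blue symbols (UV inputs) sit right of red ones (UV pull-downs) for IAPEz-int and IAPLTR1_Mm and left of them for IAPEY5_LTR, IAPLTR3-int, IAPEy-int and IAPA_MM-int.

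Among internal regions 4 of 10 were called higher and none lower. IAPEz-int, with the most copies (4285), had 91.8 and 72.5 RPM in the UV inputs, 55.6 and 51.4 RPM in the UV pull-downs, 65.2 RPM in the no-UV input and 35.2 RPM in the no-UV pull-down. Every pull-down was below every input, with a mean of 53.5 ± 2.97 against 82.2 ± 13.6 RPM (SD, n = 2 each), but the edgeR log2 ratio of -0.53 (SE 0.18) had an adjusted p of 0.149 and was not called.

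IAPEY5_I-int, the internal region of the IAPEY5 group, was higher in each pull-down than in any input. It had 7.33 and 11.2 RPM in the UV inputs, 22.7 and 16.7 RPM in the UV pull-downs, 2.76 RPM in the no-UV input and 21.4 RPM in the no-UV pull-down. The edgeR log2 ratio was 1.17 (SE 0.25, adjusted p 0.0436), and the call was lost without UV input 1 (adjusted p 0.155) and without UV pull-down 1 (0.0773), within a range of 0.00548 to 0.884 over all alternatives.

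IAPLTR3-int is an internal region named after its LTR, IAPLTR3. It had 2.69 and 1.77 RPM in the UV inputs and 6.92 and 16.99 RPM in the UV pull-downs. The highest value was that of the no-UV pull-down, 26.1 RPM, against 1.26 RPM in its input. With 12.0 ± 7.12 against 2.23 ± 0.654 RPM (SD, n = 2 each), the edgeR log2 ratio was 2.51 (SE 0.47, adjusted p 0.0257). It was 1.71 without UV pull-down 2, which held most of the UV pull-down reads.

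The remaining called internal regions had few reads and input means under 1 RPM. IAPEy-int rose from 0.388 and 0.558 RPM to 2.23 and 2.34 RPM (edgeR log2 ratio 2.34, SE 0.22, adjusted p 0.00178). Its no-UV libraries had 0.375 RPM in the input and 1.47 RPM in the pull-down. IAPA_MM-int had 0.204 and 0.127 RPM in the inputs, 6 reads in all, and 1.52 and 2.62 RPM in the pull-downs. Its edgeR log2 ratio was 3.66 (SE 0.47, adjusted p 0.00580), and the ratio of pooled reads was 12.4 with a 95% counting interval of 5.38 to 34.9. With either UV pull-down left out it fell under the minimum and was not tested.

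Of the internal regions that did not pass, IAP-d-int had 13.02 and 11.4 RPM in the inputs and 14.9 and 16.1 RPM in the pull-downs (edgeR log2 ratio 0.44, SE 0.15, adjusted p 0.162). IAPEY3-int had 6.55 and 4.91 RPM against 7.70 and 7.065 RPM (log2 ratio 0.46, adjusted p 0.195 with edgeR). IAPEY4_I-int was below both inputs in each pull-down (edgeR log2 ratio -0.54, adjusted p 0.308). IAP1-MM_I-int and IAPLTR4_I overlapped between the groups, with edgeR log2 ratios of 0.19 and -0.26 and adjusted p of 0.739 and 0.693.

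Among the 7 tested LTR subfamilies, 2 were called higher and 1 lower. IAPLTR1_Mm, the LTR of young IAPEz proviruses, was the one that fell. It had 22.5 and 20.2 RPM in the UV inputs, 9.25 and 11.7 RPM in the UV pull-downs, 16.7 RPM in the no-UV input and 9.11 RPM in the no-UV pull-down. Each pull-down was below every input, and the edgeR log2 ratio was -0.94 (SE 0.18, adjusted p 0.0280). The call did not hold without UV input 1 (adjusted p 0.112), without UV pull-down 1 (0.0585) or with TMM factors (0.0877), within 0.00184 to 0.823 over all alternatives. TMM factors moved the median log2 ratio of all features from -0.21 to near 0, and that of IAPLTR1_Mm to -0.73.

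IAPEY5_LTR rose with its internal region. It had 2.16 and 2.585 RPM in the UV inputs, 15.9 and 7.37 RPM in the UV pull-downs, 0.141 RPM in the no-UV input and 7.48 RPM in the no-UV pull-down. All 3 pull-downs were above all 3 inputs, and the edgeR log2 ratio was 2.36 (SE 0.38, adjusted p 0.0144), or 1.73 without UV pull-down 1. IAPEY2_LTR rose from 1.05 and 1.27 RPM to 1.95 and 2.265 RPM (log2 ratio 0.96 in edgeR, SE 0.20, adjusted p 0.0391). That call was lost without UV input 1 (adjusted p 0.138) and without UV pull-down 2 (0.176), within 0.0126 to 0.884 over all alternatives.

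The IAPLTR2 elements gave no calls. IAPLTR2b had 2.94 and 3.27 RPM in the inputs and 1.62 and 1.82 RPM in the pull-downs, just outside the threshold (edgeR log2 ratio -0.75, SE 0.17, adjusted p 0.0507). For IAPLTR2a2_Mm, IAPLTR2_Mm and IAPLTR1a_Mm the edgeR log2 ratios were 0.43, 0.14 and -0.01, with adjusted p of 0.303, 0.734 and 0.985. The 8 LTR subfamilies under the minimum had mean levels of at most 0.921 RPM and summed to 3.62 and 3.60 RPM in the inputs and 4.00 and 4.88 RPM in the pull-downs. Those were IAPLTR2a, IAPEY3_LTR, IAPLTR4, IAPEY_LTR, IAP1-MM_LTR, IAPEY3C_LTR, IAPLTR3 and IAPEY4_LTR.

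The no-UV pull-down reads the RNA recovered without crosslinking. Its cells also held the tagged protein, so RNA kept by the protein and by the beads cannot be told apart. Its ratio over input was above 1 for 12 of the 17 tested subfamilies (70.6%), for 69.9% of other LTR subfamilies, 74.2% of other ERVK subfamilies and 15% of all features. It was above 1 for all 6 that were called higher with UV. In 4 of those 6 the no-UV ratio was the larger one. It was 52.9 against 4.90 for IAPEY5_LTR, 20.8 against 5.36 for IAPLTR3-int, 19.9 against 12.5 for IAPA_MM-int and 7.78 against 2.13 for IAPEY5_I-int. In all 4 the no-UV input was below both UV inputs, at 0.141 against 2.16 and 2.585 RPM for IAPEY5_LTR. The no-UV pull-down lay between the UV pull-downs, except for IAPLTR3-int, where it was above both. For IAPEy-int (3.93 against 4.84) and IAPEY2_LTR (1.42 against 1.81) the no-UV counting intervals of 1.47 to 14.0 and 0.554 to 3.85 include the UV ratio. The no-UV input held 2 reads of IAPEY5_LTR, so that its ratio has a 95% counting interval of 14.2 to 441. It held about 1 read of IAPA_MM-int, with an interval of 3.44 to 891 that includes the UV ratio. Without their leading copies, the ratio with UV against that without was 2.27 against 1.70 for IAPLTR3-int, 3.51 against 1.97 for IAPEy-int and 1.29 against 0.8004 for IAPEY2_LTR. The no-UV ratio stayed the larger one for IAPEY5_LTR (4.63 against 37.3) and IAPA_MM-int (1.08 against 1.47). For IAPEY5_I-int there was no such ratio, as its leading copy held 100% of its reads in the no-UV input.

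**Figure D3:**
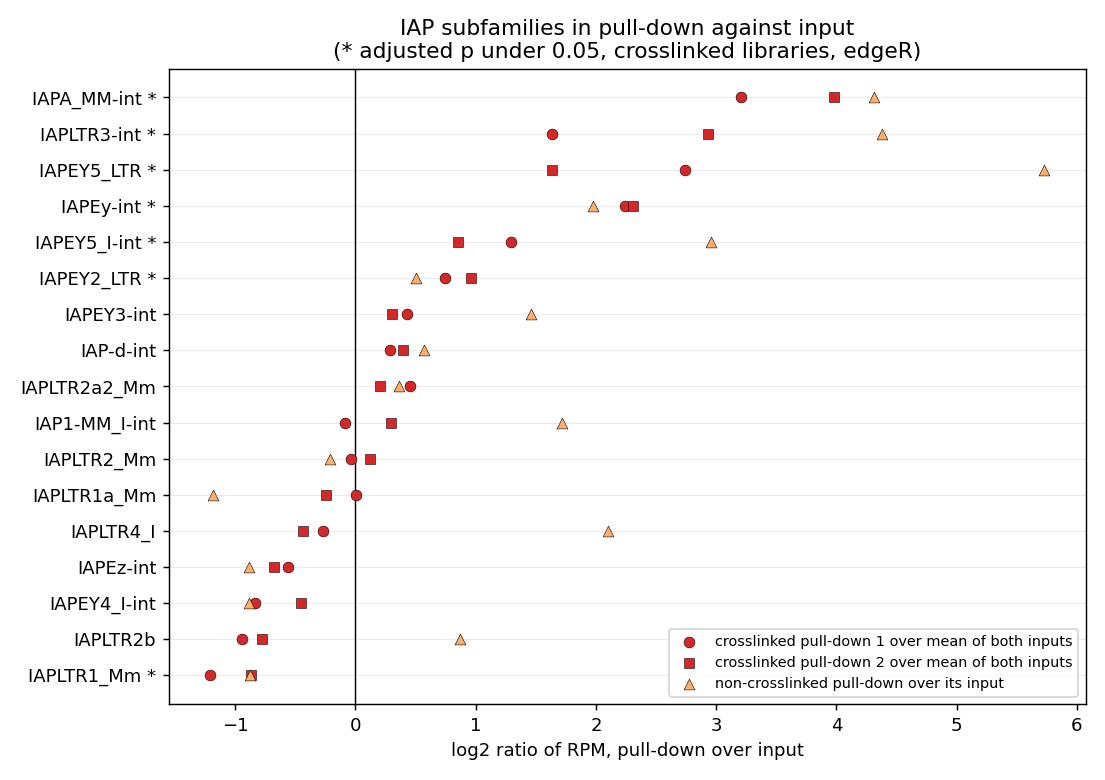
Log2 ratio of RPM, pull-down over input, for the 17 tested IAP subfamilies, ordered by the UV ratio. Red symbols give each UV pull-down over the mean of both inputs, orange triangles the no-UV pair, and an asterisk marks an edgeR adjusted p under 0.05. The triangle lies right of both red symbols for 9 subfamilies, of which IAPA_MM-int, IAPLTR3-int, IAPEY5_LTR and IAPEY5_I-int were called higher.

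The difference between the UV and the no-UV ratio was tested with all 6 libraries in an edgeR fit, in which each no-UV library was assumed to vary like the UV groups, with 2 residual degrees of freedom. No IAP subfamily and none of the 33179 features tested was called (0%). At an unadjusted p under 0.05, 5 of 17 IAP subfamilies had a lower ratio with UV, which 2.44% of all features had (15.5% differed either way), and none had a higher one. Among other LTR subfamilies 45 of 359 were lower (12.5%). With TMM factors the counts were 8 of 17 for IAP and 109 of 359 for other LTR subfamilies (30.4%), against 8.38% of all features. Without TMM factors, and with the leading copy of each IAP subfamily left out, 2 of 13 were lower. The 5 were IAPLTR2b (difference of log2 ratios -1.73, SE 0.38), IAPEY5_I-int (-1.88, SE 0.49), IAPLTR4_I (-2.41, SE 0.65), IAPEY3-int (-1.08, SE 0.36) and IAPEY5_LTR (-3.38, SE 1.20). Their adjusted p ranged from 0.282 to 0.294 with edgeR. In each of the 5 the no-UV input was below both UV inputs, and its part in the difference was not tested. With DESeq2, 1 IAP subfamily, IAPEY5_I-int, was called lower (log2 -2.53, adjusted p 0.0294), as were 9 of 359 other LTR subfamilies and 165 of all features (0.497%). For IAPEz-int and IAPLTR1_Mm the differences were 0.26 (SE 0.31) and -0.16 (SE 0.32), with adjusted p of 0.667 and 0.796 in edgeR. The median difference over all features was 0.54 and moved to -0.01 with TMM factors.

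IAP reads were spread thinly over copies. Between 2497 and 5371 copies had a read in a library, and 81.8 to 87.3% of these held less than 1 read, since the deposited counts are fractional. Of the 10753 copies, 6994 had the same counts as another IAP copy in all libraries. It took 260 copies of IAPEz-int to reach 50% of its reads in the UV libraries, but 18 of IAPLTR1_Mm, 2 of IAPEY5_LTR and 1 of IAPEY5_I-int. The 10 copies with the most reads held 13.4 to 17.2% of the IAP reads of an input and 27.7 to 46.5% of those of a pull-down.

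Single copies, named as the 5 internal and 5 LTR copies with the highest mean, carried several of the subfamily differences. IAPEY5_I-int_dup181 held 99.0% of its subfamily in the UV inputs and 95.9% in the UV pull-downs. It had 7.22 and 11.1 RPM in the inputs, 22.0 and 15.8 RPM in the pull-downs, 2.76 RPM in the no-UV input and 21.0 RPM in the no-UV pull-down. As a single feature it was just outside the threshold (edgeR log2 ratio 1.13, SE 0.27, adjusted p 0.0510).

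IAPLTR3-int_dup1706 was close to absent from inputs. It had 0.0597 and 0.114 RPM in the UV inputs, 3 reads in all, then 2.73 and 11.4 RPM in the UV pull-downs, 0.0151 RPM in the no-UV input and 24.0 RPM in the no-UV pull-down. The ratio of pooled reads was 84.2 with a counting interval of 28.5 to 412 (edgeR log2 ratio 6.37, SE 1.14, adjusted p 0.0180). Over the mean input it was 31.5 in UV pull-down 1 and 132 in UV pull-down 2, and without the latter the copy fell under the minimum and was not tested. This copy made up 3.89% of IAPLTR3-int in the UV inputs, 59.3% in the pull-downs and 91.9% in the no-UV pull-down. Without it the subfamily was still called higher (edgeR log2 ratio 1.29, SE 0.26, adjusted p 0.0331), with a size reduced from 2.51. Over all alternatives, this one included, the adjusted p of the subfamily ranged from 2.24e-06 to 0.884.

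The LTR copies IAPEY5_LTR_dup116 and IAPEY5_LTR_dup20 had nearly equal counts, and whether they share reads was not tested. IAPEY5_LTR_dup116 had 0.888 and 1.11 RPM in the UV inputs, 7.32 and 3.21 RPM in the pull-downs, 0.0353 RPM in the no-UV input and 3.53 RPM in the no-UV pull-down. Its edgeR log2 ratio was 2.48 (SE 0.44, adjusted p 0.0179).

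The highest IAPEz-int and IAPLTR1_Mm copies were lower in the pull-downs. IAPEz-int_dup6703 had 2.60 and 2.20 RPM in the UV inputs and 1.24 and 0.655 RPM in the pull-downs (edgeR log2 ratio -1.26, SE 0.27, adjusted p 0.0380). IAPLTR1_Mm_dup1332 had 2.06 and 2.05 RPM against 0.891 and 1.10 RPM (edgeR log2 ratio -0.99, SE 0.19, adjusted p 0.0244), and IAPLTR1_Mm_dup1333 had almost the same counts. IAPEz-int_dup1227, identical in counts to IAPEz-int_dup745, was called lower at an adjusted p of 0.0496 with edgeR, and IAPEz-int_dup4681 was not called (0.0645). IAPLTR2_Mm_dup1275, under the minimum, had 0.942 and 0.501 RPM against 0.804 and 0.554 RPM. In all, 10 copies reached the minimum, and edgeR called 3 higher and 5 lower, where 6.44% and 3.5% of 39872 features were called (9.93% either way). All copies called lower had a pull-down mean under 1 RPM and reached the minimum through the inputs, and IAPLTR3-int_dup1706 reached it through the pull-downs alone. The minimum thus favoured copies that differ, and nothing is read from these counts. The count of lower calls was 0 without UV input 1 and 2 without either UV pull-down. The count of higher calls was 5 without UV input 2.

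**Figure D4:**
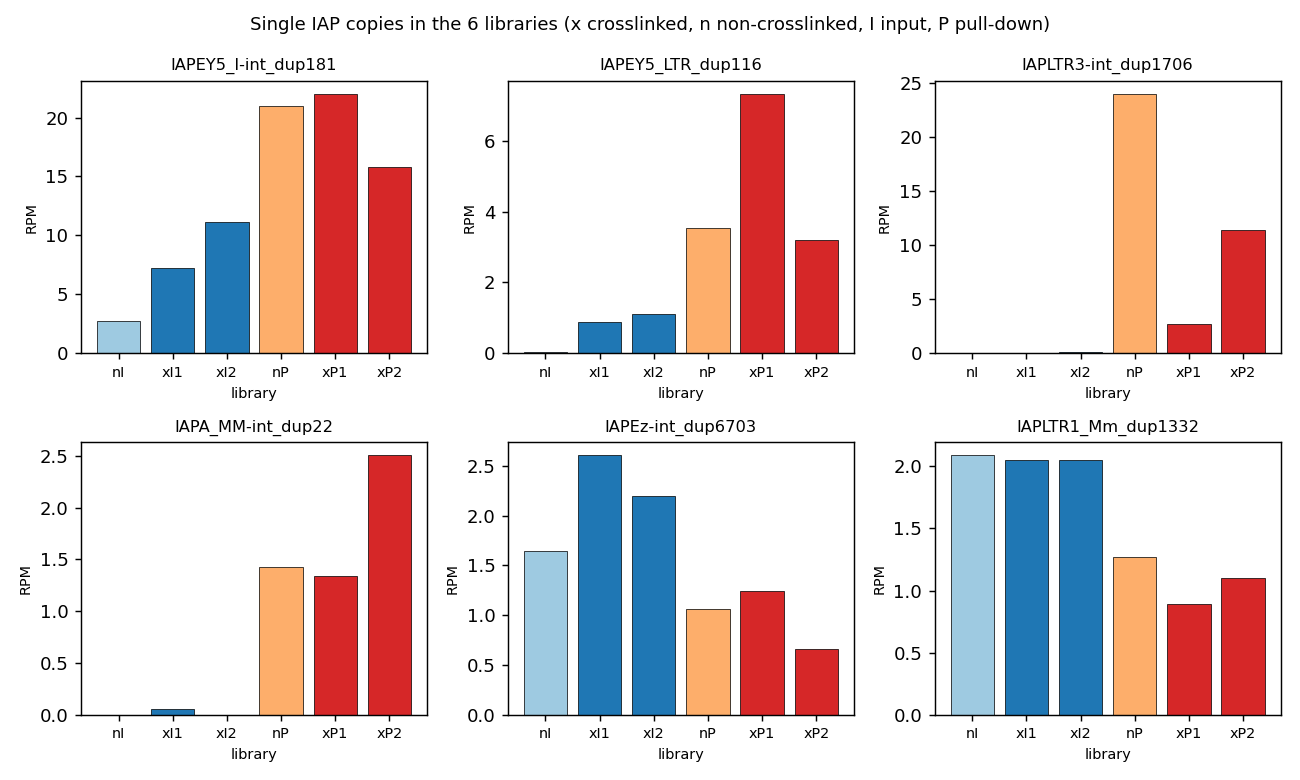
RPM of 6 single IAP copies in the 6 libraries, with bars starting at 0 and a separate axis for each copy. IAPEY5_I-int_dup181, IAPEY5_LTR_dup116, IAPLTR3-int_dup1706 and IAPA_MM-int_dup22 are higher in every pull-down than in every input, and IAPEz-int_dup6703 and IAPLTR1_Mm_dup1332 are lower.

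The part played by the leading copy was examined for the other called subfamilies too, with copies picked after their reads were seen. IAPA_MM-int_dup22 held 92.9% of IAPA_MM-int in the UV pull-downs, with 1.34 and 2.50 RPM there, 0.0573 and 0 RPM in the inputs, 0 in the no-UV input and 1.42 RPM in the no-UV pull-down. Without it the subfamily fell under the minimum, as did IAPEY5_I-int without IAPEY5_I-int_dup181. The UV ratio of the few reads left, which was not tested, was 1.08 for IAPA_MM-int, against 12.5 with the copy. For IAPEY5_I-int it was 8.24, against 2.13. IAPEY2_LTR_dup882 was not read in any of the 3 inputs and had 0.651 and 0.569 RPM in the UV pull-downs, at least 3.65-fold above the level of 3 reads per input library. Without it the edgeR log2 ratio of IAPEY2_LTR was 0.48 and its adjusted p 0.351, so the call was lost. IAPEy-int kept its call without IAPEy-int_dup566 (edgeR log2 ratio 1.88, adjusted p 0.00478). It still reached the minimum through the pull-downs alone, so that this test too was in part set by the minimum. For IAPEY5_LTR and IAPLTR1_Mm, whose leading copy has a near-equal second one in the sum, leaving out the first is no check.

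Other LTR repeats, fitted in the same table, were called higher in these shares. Of 186 other ERVK subfamilies 96 were higher (51.6%), and of all 385 other LTR subfamilies 165 (42.9%), compared with 6 of 17 IAP subfamilies (35.3%). Median edgeR log2 ratios were 0.95, 0.69 and 0.43. None of 5 ETn/MMETn subfamilies, another set of mouse ERVK repeats, was higher, and MMETn-int was called lower (log2 ratio -0.92, adjusted p 0.0496 with edgeR). These counts and medians describe the sets, and differences between the sets were not tested.

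A table that the authors deposited gives 1 enrichment ratio for each feature it lists, by a formula that is not stated. As used here, the authors' deposited table listed 357 IAP copies, 347 of which had reads in all 6 libraries, with a median ratio of 0.772. Above 1 in the authors' deposited table were 34.7% of these copies, 58.4% of 2633 other LTR copies and 74.6% of all features. By subfamily, the authors' deposited table had 89 of 259 IAPEz-int copies, 10 of 63 IAPLTR1_Mm copies and 21 of 25 IAP-d-int copies above 1. It had 3 of 8 IAPEY3-int copies above 1, and listed 1 copy each of IAPLTR3-int and IAPEY4_I-int and none of other subfamilies. Of the subfamilies called higher with UV, only IAPLTR3-int was thus listed. The median and the share therefore describe mostly IAPEz-int and IAPLTR1_Mm. The highest IAP value in the authors' deposited table was 51.0 for IAPEz-int_dup380. That copy had 0.155 and 0.833 reads in the UV inputs and 3.36 and 1.11 reads in the UV pull-downs.

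Genes that repress IAP or act in the piRNA pathway were read from the pre-mRNA features of the same libraries. Of 32 genes listed, 11 reached the minimum of 1 RPM, and edgeR called 1 higher and 1 lower in the UV pull-down, where 0.469% of the 2561 pre-mRNA features tested were higher and 10.5% lower. Their median log2 ratio was -0.42, against -0.52 for all of these features. The higher one was Gtsf1 itself, whose endogenous and transfected reads cannot be told apart, and the lower one was Atf7ip, a partner of Setdb1 (log2 ratio -1.17, SE 0.23, adjusted p 0.0330 with edgeR). Trim28, the corepressor that brings Setdb1 to IAP, had 8.76 and 6.84 RPM in the UV inputs and 5.83 and 7.27 RPM in the pull-downs (log2 ratio -0.16, adjusted p 0.674 with edgeR). The Piwi genes Piwil1, Piwil2 and Piwil4 did not exceed 0.163 RPM as pre-mRNA features in any library. With exon and intron features added, Piwil2 had 0.724 and 0.623 RPM in the UV inputs and 0.533 and 0.535 RPM in the UV pull-downs, with 0.0848 RPM in the no-UV input and 0.339 RPM in the no-UV pull-down.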

How the data were processed

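Reads per annotated feature were analysed in the 6 libraries. The authors' deposited expected counts are fractional, with matching reads apparently shared among features, and the deposited RPM values are these counts scaled to all reads of the library. The authors' deposited ratio table has no stated formula. The submitters' processing notes name bcl2fastq 2.19, STAR 2.5.2b, bedtools 2.29.0 and build mm10. The annotation, the use of strand and the removal of PCR duplicates are not given in the sources used here, so sense and antisense reads of a repeat are not separated. Feature names carry no coordinates, and no sequence was assigned to a copy.

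Copies of every repeat subfamily were summed by stripping the copy number, and counts were rounded. edgeR 4.0.16 (quasi-likelihood test, R 4.3.3) compared UV pull-downs with UV inputs over features whose mean reached 1 RPM. Library sizes were annotated reads without factors, and reads without annotation were left out of the tests. Adjusted p-values are Benjamini-Hochberg values over all features tested. limma 3.58.1 and DESeq2 1.42.0 were alternatives. The fits were tested on simulated data. A single read was worth 0.0543 to 0.0759 RPM. Intervals cover counting error only, at a level of 95%, and 3 reads were the floor.

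The copies named are the 5 internal and 5 LTR copies with the highest mean over the UV libraries. Comparison sets were ETn/MMETn and the other LTR repeats. The members, lists and tests were chosen with earlier results of these data known.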

Additional observations from a re-analysis of the deposited data

Results flagged for a closer look

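IAPEY3_LTR was lower in both UV pull-downs than in both inputs, at a ratio of 0.642, while without UV the pull-down was above the input, at 1.82 (95% counting interval 0.459 to 13.3). IAPLTR3 was higher in both UV pull-downs, at a ratio of 4.35, while its no-UV ratio of 0.992 rests on about 1 read in each library (interval 0.0137 to 84.4). Both stayed under the minimum for the test, with 18 and 32 pooled reads for IAPEY3_LTR and 12 and 3 for IAPLTR3 in UV pull-downs and inputs, and the differences between UV and no-UV ratios were not tested.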

How the results depend on the processing

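The 6 higher subfamily calls became 2 with a minimum of 5 RPM, 0 without a minimum (9 at an unadjusted p under 0.05 with edgeR) and 3 when each subfamily lost its copy with the most reads, an alternative chosen after seeing the data. They ranged from 4 to 6 with a UV library left out. The single lower call, IAPLTR1_Mm, became 0 with TMM factors, without a minimum or with DESeq2. The count was 2 with library sizes that include unannotated reads or with limma, 3 with repeat subfamilies alone, and 0 to 1 with a library left out. Higher copy calls (3) became 8 with a minimum of 0.5 RPM, 0 with 5 RPM and 0 without a minimum, and were 3 to 5 with a library left out. Lower copy calls (5) became 0 with TMM factors, DESeq2, a minimum of 5 RPM or none, 3 with rRNA left out of library sizes, 3 with identical copies counted once, and 0 to 5 with a library left out. The cause was not tested, except that stricter minimums test fewer features. The difference between UV and no-UV ratios gave 1 lower call with DESeq2 and 0 in the other alternatives. The IAP share ratio of 0.987 became 1.35 without IAPEz-int and was 0.923 to 1.06 with a library left out. The log2 difference of internal over LTR reads was -0.09 to 0.13 with a library left out.

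Same-numbered libraries share only a number, and the correlation of their deviations was 0.117 over 39069 features and -0.40 over the 17 tested IAP subfamilies. With the replicate block, higher subfamily calls were 4 and lower calls 1, since IAPEY5_I-int (adjusted p 0.0937), IAPLTR3-int (0.0551) and IAPLTR1_Mm (0.0544) missed the threshold in edgeR and IAPLTR2b passed it (0.0493). With that replicate block, lower copy calls were 3 and higher ones 3, the share ratio was 0.989, and the internal over LTR difference was 0.02.

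Uncalled subfamilies changed sign as follows. IAPLTR1a_Mm (log2 -0.01) turned to 0.19 with TMM factors and with DESeq2 and to 0.10 with rRNA left out, and ranged from -0.32 to 0.37 with a library left out (0.10 without UV pull-down 2). With a library left out, IAP1-MM_I-int ranged from -0.044 to 0.40, IAPLTR2_Mm from -0.084 to 0.41 and IAPLTR4_I from -0.66 to 0.33. Of 10753 copies, 10743 stayed under the minimum and were not tested.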
